A study of Homo sapiens with 6 samples.

Results

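The genes described here encode the proteins of the cytosolic ribosome. They were chosen by symbol, as every gene named RPL or RPS with a number, optionally followed by A, X or L, together with RPLP0, RPLP1, RPLP2 and RPSA, that had at least 10 counts in each of 6 RNA-Seq libraries. Of the 28008 genes in the count table, 81 had such a symbol and 78 of these reached the count minimum (47 of the large subunit and 31 of the small subunit). Other genes of the cytosolic ribosome whose symbols fall outside this pattern, such as FAU and RACK1, are given separately.

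Transcripts were measured by RNA-Seq in cells of the line DU-145-DR/tet-MUC1shRNA. DU-145 is a human prostate cancer line, and DU-145-DR cells were derived from it by the authors through growth in rising concentrations of docetaxel (DTX). The cells carry a doxycycline (DOX)-inducible short hairpin RNA against MUC1, a transmembrane mucin. Both groups had 3 libraries from cultures of this line, treated for 7 days with 0.1% DMSO vehicle (DOX-negative) or with 500 ng/ml DOX (DOX-positive). The sample labels name the hairpin only for the DOX-positive group, and no DOX-treated culture without it was analysed here, so an effect of DOX itself and an effect of the hairpin cannot be told apart. Whether the line is a single clone is not given in the sources used here.

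Libraries held 15092691 to 23243713 counts, so that 3 counts, taken as the detection floor, corresponded to 0.129 to 0.199 CPM of the unscaled library total. CPM values of genes are scaled to TMM-adjusted library totals. MUC1, the targeted gene, had 21.9 ± 2.58 CPM (SD, n = 3) in DOX-negative cells and 3.86 ± 0.585 CPM (SD, n = 3) in DOX-positive cells, so that its log2 fold change was -2.52 ± 0.15 (SE) with an edgeR adjusted p of 4.47e-11. The epithelial genes KRT8, KRT18, KRT19, EPCAM and CDH1 were detected in every library, and all 5 were called higher with DOX. Of the luminal prostate genes, KLK3 had 0 counts in every library and KLK2 had 0 or 1. Of 6 markers of blood, stromal and endothelial cells, 1 (COL1A1, 66 to 96 counts) passed the expression filter, and the other 5 had at most 6 counts in a library. In bulk RNA, fewer cells with a transcript and less of it per cell cannot be told apart.

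Ribosomal proteins assemble with ribosomal RNA in the nucleolus into the small subunit, which decodes mRNA, and the large subunit, which joins amino acids. Their genes are among the most strongly transcribed in dividing cells. Most of their mRNAs start with a cytosine followed by a run of pyrimidines, the terminal oligopyrimidine (TOP) tract, through which mTORC1 and the RNA-binding protein LARP1 control their translation together. Changes at that step are not measured by RNA-Seq of total mRNA.

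The start of transcription is shown first for members called lower or higher with DOX, because it is the sequence that members of this class share and that the choice by symbol did not use. Each sequence runs from 12 bases before to 28 bases from the annotated start (RefSeq, GRCh38.p14), 5′ to 3′ on the gene's strand. Capitals mark the unbroken run of C and T that begins with a C at the start, or the start base alone where there is no such run.

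RPSA (chr3:39406708-39406747, plus strand): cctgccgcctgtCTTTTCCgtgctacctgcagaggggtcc
RPL7A (chr9:133348206-133348245, plus strand): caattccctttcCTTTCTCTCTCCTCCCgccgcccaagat
RPL26 (chr17:8383166-8383205, minus strand): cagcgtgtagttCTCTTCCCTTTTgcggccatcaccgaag
RPL35A (chr3:197950178-197950217, plus strand): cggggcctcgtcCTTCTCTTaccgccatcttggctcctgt
RPL27 (chr17:42998407-42998446, plus strand): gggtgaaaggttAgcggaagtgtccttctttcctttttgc
RPL15 (chr3:23917120-23917159, plus strand): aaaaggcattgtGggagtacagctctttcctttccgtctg
RPS27L (chr15:63157450-63157489, minus strand): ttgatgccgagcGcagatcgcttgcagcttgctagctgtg
RPS27 (chr1:153990750-153990789, plus strand): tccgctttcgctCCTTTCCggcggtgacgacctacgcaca

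The first 4 of these genes, all called lower with DOX, started with pyrimidine runs of 7, 16, 12 and 8 bases. RPL27, also called lower, and RPL15 and RPS27L, both called higher, had no such run at any annotated start in the table. RPS27, the close relative of RPS27L, had a run of 7 bases and was not called. The annotated starts of RPL27 and RPL15 lie upstream of a pyrimidine stretch that is visible in lower case in their windows.

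Promoters were in the RefSeq table for 62 of the 78 members. A TOP-like start was defined as a C followed by at least 4 pyrimidines at any annotated start of the gene. It was found in 45 of these 62 (72.6%), against 970 of 17316 other genes of the count table with a promoter (5.6%). Mitochondrial ribosomal protein genes, whose products form a separate ribosome in the same cells, had it in 6 of 68 (8.8%). A search for 4 short motifs covered both strands from 250 bases before to 50 bases after each annotated start. CCGGAAG, the core of ETS family sites, was found at any start in 35.5% of these members and 15% of the other genes. Among mitochondrial ribosomal protein genes it was found in 42.6%. GGGCGG was found in 58.1% of these members against 59.6% of the other genes, TATAAA in 8.1% against 12.5%, and CACGTG in 6.5% against 10.3%. The 45 members with a TOP-like start and the 17 without it had the same median log2 fold change of -0.04, with 4 of 45 and 3 of 17 called. The 16 members with no promoter in the table had a median of -0.08, with 3 called. Over all genes tested, 26.7% were called.

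Transcripts of ribosomal protein genes changed little between DOX-negative and DOX-positive cells. Of the 78 members, 10 passed the test (edgeR's quasi-likelihood test, Benjamini-Hochberg adjusted p under 0.05), where 26.7% of the 14292 genes tested passed it. Among these, 8 were lower with DOX (13.7% of all genes were called lower) and 2 were higher (13.0% of all genes were called higher). The 10 called members were 12.8% of the 78. The genes called lower included RPSA, RPL7, RPL30, RPL27, RPL7A, RPL26 and RPL35A, and the genes called higher were RPS27L and RPL15.

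In this fit, changes were small as well as few. Log2 fold changes of the members ran from -0.40 (RPL36A) to 0.44 (RPS27L), with a median of -0.04 beside a median of -0.0034 over all genes tested. The middle 50% of the members lay between -0.11 and 0.03, whereas those of all genes lay between -0.20 and 0.19. For 74 of the 78 members (94.9%) the fold change was within 0.25 of 0 in either direction on the log2 scale, beside 60.3% of all genes tested. The median SE was 0.065 for members and 0.106 for all genes. Values were negative in 52 members and positive in 26. In 18 members (23.1%) the CPM values of the groups did not overlap, 14 lower and 4 higher with DOX, where 39.8% of all genes tested showed no overlap.

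**Figure D1:**
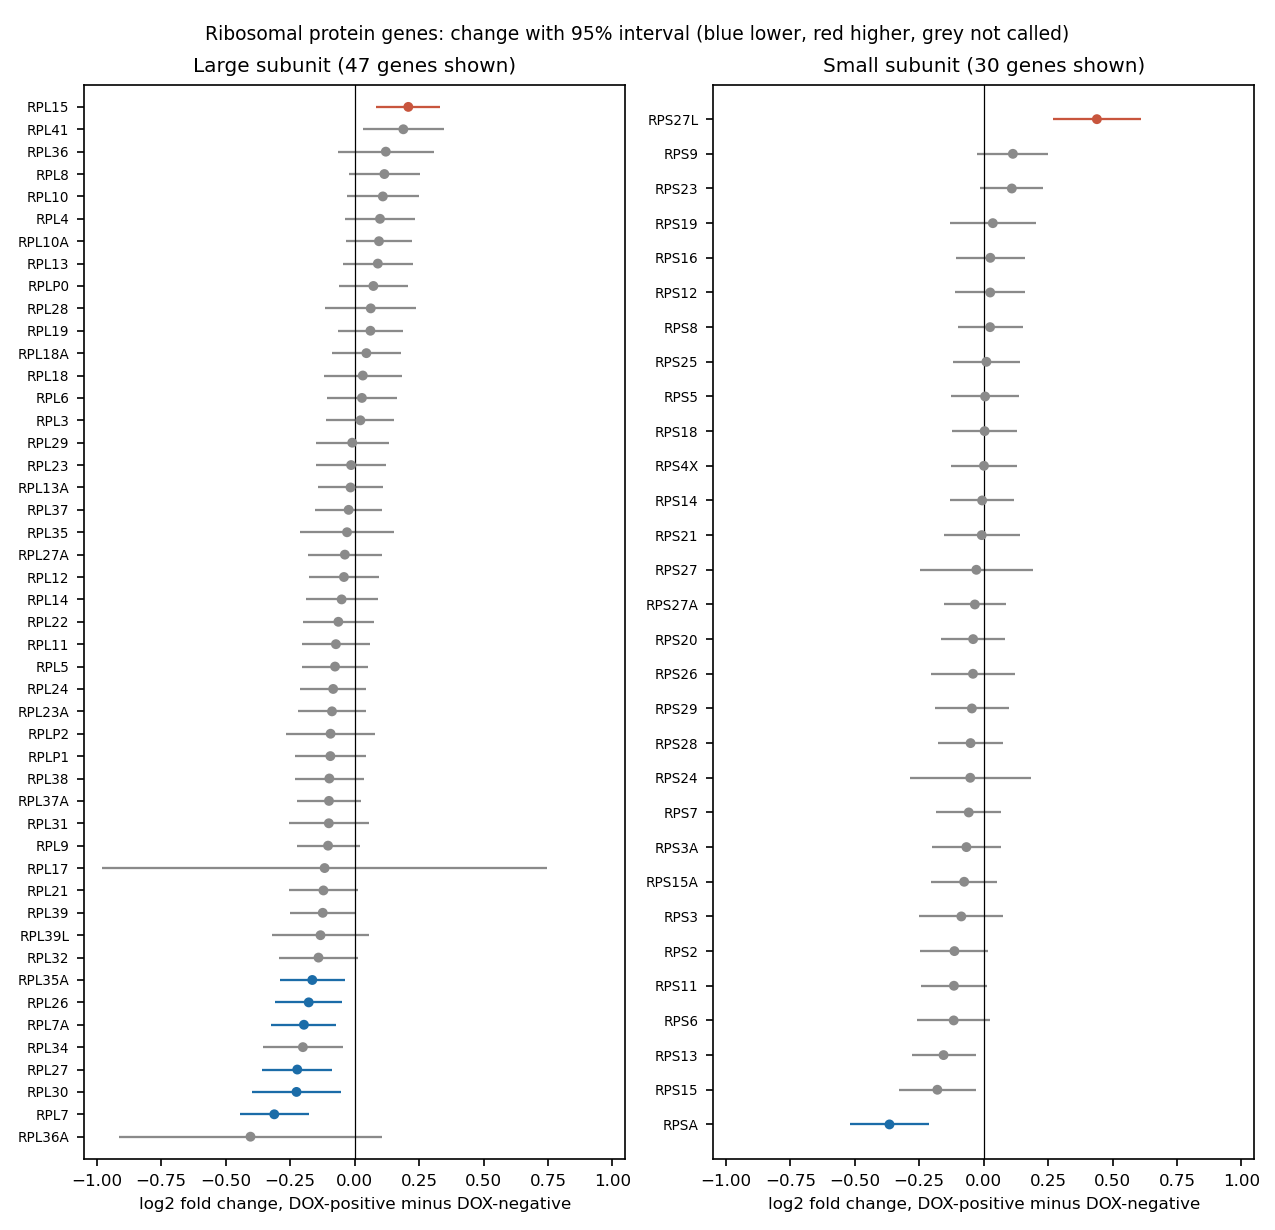
Log2 fold change with its 95% interval (x axis) for the 47 large and 30 of the 31 small subunit genes, in order of change, from the fit to 3 DOX-negative and 3 DOX-positive libraries. Most points lie within 0.25 of 0, the 7 blue genes shown were called lower and the 2 red genes higher, and RPL17 and RPL36A have the widest intervals.

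The absence of a call had a narrow interval in most members. Of the 68 members not called, 66 had a 95% interval that stayed within 0.5 of 0 on the log2 scale. RPL17 (-0.98 to 0.75) and RPL36A (-0.92 to 0.11) were the exceptions, and no other uncalled member had a limit beyond 0.357. Since neither RPL17 nor RPL36A was called, leaving them out of the count could not change the 10 members called.

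Which members passed depended on single libraries. Without DOX-negative replicate 1, DOX-negative replicate 3, DOX-positive replicate 1 or DOX-positive replicate 3, 5 members were called in each case, 3 of them lower. That is 6.4% of the members, where 19.2%, 21.7%, 21.2% and 21.4% of all genes were called, in the same order. Without DOX-negative replicate 2 there were 12 (15.4%, beside 23.6% of all genes). Without DOX-positive replicate 2 there were 11 (14.1%, beside 25.2% of all genes). RPSA, RPL7, RPL15 and RPS27L were called in all 6 of these fits, RPL27 in 5, and the other 5 called members in 1 or 2. When libraries were scaled to the summed counts of the members themselves, 5 members were called, 3 higher and 2 lower, against 2 higher and 8 lower with TMM factors. Under that scaling 26.4% of all genes were called and 10.9% were lower. With each library's trends with transcript length and GC content removed, 19 members were called, 17 of them lower (21.8%, beside 13.9% of all genes), with a median log2 fold change of -0.09, while 30.2% of all genes so corrected were called. With the gene length implied by counts and TPM used in its place, 25 members were called (32.1%, beside 30.7% of all genes), 23 of them lower. The members called were thus not fewer than over all genes in that fit, and 29.5% of the members were lower beside 14.1% of all genes. The median of the members was negative under every scaling of the counts tried, and -0.0046 when scaled to the members.

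As a class, the members took up a slightly smaller part of the DOX-positive libraries. Their summed counts made up 2.907%, 3.003% and 3.010% of the counts in DOX-negative replicates 1 to 3, and 2.89%, 2.82% and 2.76% in DOX-positive replicates 1 to 3. The means were 2.97% ± 0.058 and 2.83% ± 0.065 (SD, n = 3 each). All 3 DOX-positive values were below all 3 DOX-negative values, although DOX-negative replicate 1 and DOX-positive replicate 1 were close together. The widest exact (Clopper-Pearson) 95% interval, in DOX-positive replicate 3, ran from 2.75% to 2.77%, and covers counting error only. No test was run on this sum. These shares are of unscaled library totals. On that scale the median log2 fold change over all genes tested was itself negative (-0.038), and the members' median minus that of all genes was -0.040.

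The small subunit members held 1.25% ± 0.015 of the counts in DOX-negative cells and 1.17% ± 0.026 in DOX-positive cells (SD, n = 3 each). The large subunit members held 1.72% ± 0.042 and 1.66% ± 0.041, with overlapping groups, since DOX-positive replicate 1 (1.69%) was above DOX-negative replicate 1 (1.67%). By gene, 7 of 47 large subunit members were called (14.9%, 6 lower), with a median log2 fold change of -0.06. Of 31 small subunit members, 3 were called (9.7%, 2 lower), with a median of -0.04. Over all genes tested, 26.7% were called and 13.7% were lower.

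**Figure D2:**
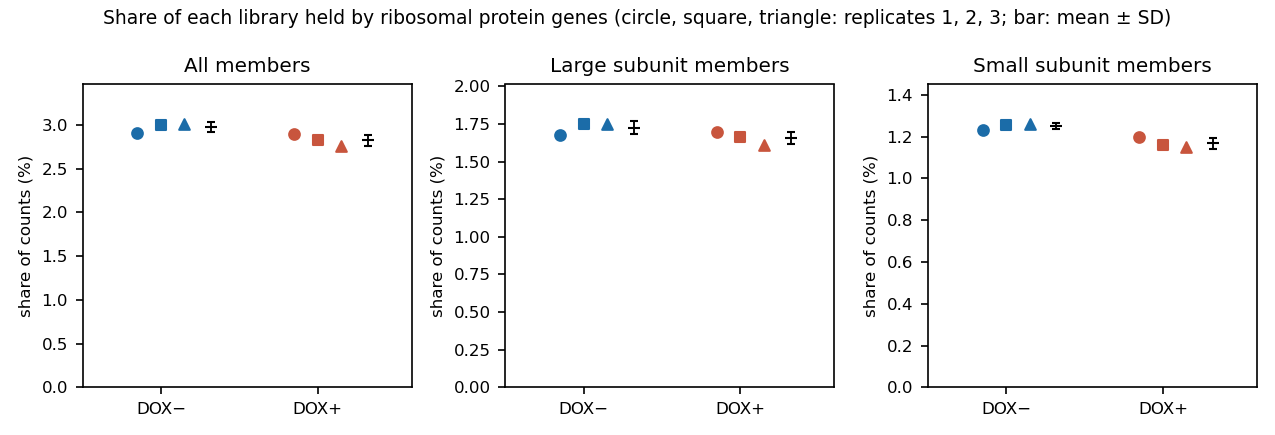
Share of each library's counts (y axis, %) held by all 78 members, by the 47 large subunit members and by the 31 small subunit members, with symbols for replicates and a bar for the mean ± SD. DOX-positive values for all members run from 2.76% to 2.89%, below the DOX-negative values of 2.91% to 3.01%.

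RPSA showed the largest fall among the called members. It encodes a small subunit protein needed to process the small subunit's ribosomal RNA, which is also known as a laminin receptor. RPSA had 567, 570 and 638 CPM in DOX-negative replicates 1 to 3 and 511, 416 and 450 CPM in DOX-positive replicates 1 to 3. The highest DOX-positive value was thus below every DOX-negative value. The log2 fold change was -0.37 ± 0.07 (SE), a decrease of 22.4% on the fitted scale, with an adjusted p of 0.000688. RPSA has 74 pseudogenes in GENCODE 29, and reads could be shared with them. The row of its pseudogene RPSAP58 fell too, from 34.8 ± 4.26 to 25.7 ± 1.17 CPM (SD, n = 3 each, log2 fold change -0.44, adjusted p = 0.0019). How the 2 rows share reads was not tested.

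RPL7 and RPL7A encode large subunit proteins, and despite their names are separate genes with unrelated products. RPL7 had 619, 612 and 696 CPM without DOX and 519, 526 and 507 CPM with DOX. Its log2 fold change was -0.31 ± 0.06 (SE, adjusted p = 0.000886), and the DOX-positive values were close together. RPL7A had 579, 584 and 601 CPM without DOX and 538, 491 and 510 CPM with DOX. Its log2 fold change was -0.20 ± 0.06 (SE, adjusted p = 0.019). In both genes the groups did not overlap, and GENCODE 29 lists 61 pseudogenes of RPL7 and 37 of RPL7A.

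RPL30 and RPL27 are large subunit proteins that fell by similar amounts but with different spread. RPL30 had 550, 502 and 615 CPM without DOX and 431, 548 and 447 CPM with DOX, so that DOX-positive replicate 2 lay within the DOX-negative range. Its log2 fold change was -0.23 ± 0.08 (SE, adjusted p = 0.048). RPL27 had 116, 124 and 118 CPM without DOX and 101, 100 and 106 CPM with DOX, with no overlap. Its log2 fold change was -0.22 ± 0.07 (SE, adjusted p = 0.015). RPL27 has 1 pseudogene in GENCODE 29, the fewest of the genes called lower.

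RPL26 and RPL35A showed smaller falls. RPL26, which lies near the exit of the peptide tunnel, had 391, 390 and 390 CPM without DOX and 326, 372 and 337 CPM with DOX (log2 fold change -0.18, adjusted p = 0.039). RPL35A had 305, 317 and 302 CPM without DOX and 280, 282 and 263 CPM with DOX (log2 fold change -0.16, adjusted p = 0.048). Neither gene overlapped between groups, but each was called 1 time when the 6 libraries were left out in turn.

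RPS27L rose, the largest change among the called members. It is a paralog of RPS27 that can take its place in the small subunit, and is known as a target of p53. RPS27L had 80.0, 65.7 and 70.6 CPM without DOX and 96.7, 107 and 89.6 CPM with DOX, with no overlap. The log2 fold change was 0.44 ± 0.08 (SE, adjusted p = 0.000377), an increase of 35.6% on the fitted scale. RPS27 itself had 140, 199 and 139 CPM without DOX and 168, 134 and 166 CPM with DOX. Its log2 fold change was -0.03 (95% interval -0.25 to 0.19), with wide spread in both groups. The ratio of RPS27L to RPS27 in TPM, which scales by gene length, was 0.219, 0.126 and 0.195 without DOX and 0.219, 0.304 and 0.206 with DOX. Per length, RPS27L thus stayed below RPS27 in every library, and the ranges of the ratio overlapped.

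RPL15, the other gene that rose, encodes a large subunit protein. It had 538, 527 and 538 CPM without DOX and 619, 642 and 592 CPM with DOX, with no overlap between groups. The log2 fold change was 0.21 ± 0.06 (SE, adjusted p = 0.013), an increase of 15.5% on the fitted scale.

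**Figure D3:**
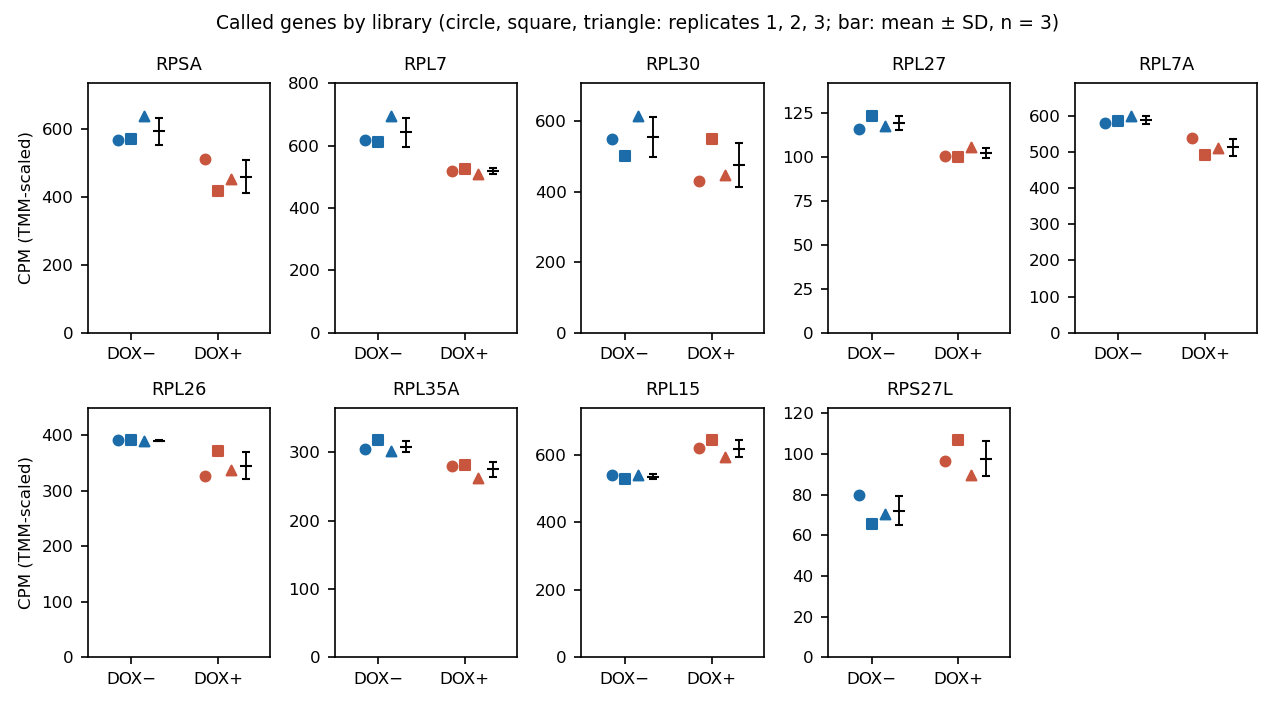
CPM scaled with TMM factors (y axis, from 0) in each library for 9 of the 10 called members, in order of fold change, with symbols for replicates and a bar for the mean ± SD. The groups do not overlap in 8 of the 9 genes shown, and in RPL30 the DOX-positive replicate 2 lies among the DOX-negative values.

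Several members lay just outside the threshold, and are named because of their values. RPL34 (log2 fold change -0.20, adjusted p = 0.052), RPS13 (-0.16, adjusted p = 0.058) and RPS15 (-0.18, adjusted p = 0.068) were lower in the mean, and only RPS13 had groups that did not overlap. RPL41, which encodes the smallest ribosomal protein, was higher in the mean (0.19, adjusted p = 0.071). With DESeq2, 10 members were again called (12.8%, beside 25.6% of all genes), 9 of them shared, with RPS13 in place of RPL30.

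Groups of members with known roles were also read against the share of 26.7% over all genes. The P stalk recruits the GTPases that drive translation, and none of its 4 members (RPLP0, RPLP1, RPLP2 and RPL12) was called by edgeR or DESeq2, with 0 at an unadjusted p under 0.05. RPLP0, the base of the stalk and a common reference gene in quantitative PCR, had 705, 748 and 758 CPM without DOX and 829, 755 and 741 CPM with DOX, with overlapping groups. Its log2 fold change was 0.07 (95% interval -0.06 to 0.21). RPLP1 (-0.09, interval -0.23 to 0.04) and RPLP2 (-0.09, interval -0.26 to 0.08), the acidic proteins bound to it, had log2 fold changes of similar size in the other direction.

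RPL5 and RPL11 bind 5S ribosomal RNA and, when free, the p53 regulator MDM2. RPL5 had 363, 382 and 403 CPM without DOX and 347, 379 and 362 CPM with DOX (log2 fold change -0.08, interval -0.21 to 0.05). RPL11 had 235, 265 and 265 CPM without DOX and 243, 241 and 244 CPM with DOX (-0.07, interval -0.20 to 0.06). The groups overlapped in both genes and neither was called by edgeR or DESeq2, with 0 of the 2 at an unadjusted p under 0.05.

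At the rim of the peptide exit tunnel, 1 of 7 members was called (RPL26), and beside the mRNA channel 0 of 4 (RPS2, RPS3, RPS26 and RPS28) were called by edgeR or DESeq2, with 0 at an unadjusted p under 0.05. Of 17 genes mutated in Diamond-Blackfan anaemia, an inherited failure of red cell production, 16 were tested and 5 were called, which is 31.2%. RPL15 was higher, and the lower genes included RPL26, RPL27 and RPL35A. The median of these 16 genes was -0.05, near that of all members.

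Of the lesser paralogs, which repeat a ribosomal protein and are mostly expressed in few tissues, RPL3L and RPL10L had 0 counts in every library. RPL39L, a paralog of RPL39 best known from testis, was detected in all 6 libraries, with 35.1, 29.3 and 33.9 CPM without DOX and 29.7, 30.1 and 29.8 CPM with DOX. It was not called (log2 fold change -0.13, interval -0.32 to 0.06). The ratio of RPL39L to RPL39 in TPM was 0.0374 ± 0.0023 without DOX and 0.0371 ± 0.0014 with DOX (SD, n = 3 each), so that RPL39L stood well below RPL39 per length in every library.

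Libraries of the same group differed for some members more than the groups did. These genes are named because of their values. RPS24, a small subunit protein, had 172, 244 and 181 CPM in DOX-negative replicates 1 to 3 and 198, 154 and 223 CPM in DOX-positive replicates 1 to 3. RPL35 of the large subunit had 234, 307 and 239 CPM and then 271, 224 and 270 CPM. RPS27, given above, had the same order, with DOX-negative replicate 2 highest and DOX-positive replicate 2 lowest in its group. In all, 15 members were highest in DOX-negative replicate 2 and lowest in DOX-positive replicate 2 of their groups. Taken singly, 26 members were highest in DOX-negative replicate 2 and 33 were lowest in DOX-positive replicate 2. More members, 41, were highest in DOX-negative replicate 3. The same counts were not made over all genes. Values differed over 1.2 times among DOX-negative libraries in 16 members and among DOX-positive libraries in 11. The SE of RPS24 was 0.113 and that of RPS27 was 0.106, beside the median of 0.065, and RPS24 had a 95% interval from -0.29 to 0.18.

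**Figure D4:**
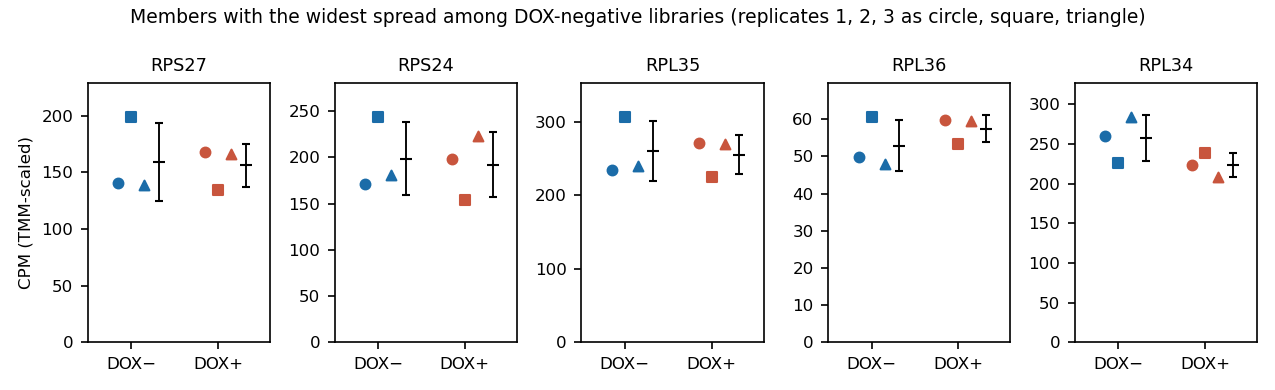
CPM scaled with TMM factors (y axis, from 0) in each library for the 5 members with the widest spread among DOX-negative libraries, leaving out RPL17 and RPL36A, with symbols for replicates and a bar for the mean ± SD. In RPS27, RPS24, RPL35 and RPL36 the DOX-negative replicate 2 (square) stands above the other DOX-negative libraries, and the DOX-positive replicate 2 is the lowest of its group.

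Ribosomal proteins are needed in equal numbers, apart from the stalk proteins, but levels of their transcripts in the deposited values were far apart. Leaving out RPL17, RPL36A and the 2 detected lesser paralogs, mean CPM of 74 members ran from 51.5 (RPLP2) to 1075 (RPL19), a range of 20.9 times, with a median of 309. In TPM, which divides by gene length, the range was wider, from 24.2 (RPL27A) to 3537 (RPS28), which is 146 times. The gene length behind each TPM was read from the ratio of counts to TPM. Across these 74 genes, TPM fell as that length rose (Spearman's rho -0.755), while CPM did not (rho 0.257). These values describe the genes of 1 set of libraries, and TPM contains the length by construction.

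The extremes in TPM followed this length. RPS28, RPL38, RPS25 and RPL37A had the highest TPM, with 5.70%, 5.24%, 4.44% and 4.03% of the summed TPM of the members. Their implied lengths were 0.0333, 0.0368, 0.0708 and 0.0457 of that of the median gene, and their CPM were 307, 317, 498 and 303 in DOX-negative cells, within the range of other members. RPL28 and RPL27A, the lowest of the 74, had implied lengths of 1.68 and 1.58 and held 0.0535% and 0.039% of the summed TPM, with 140 and 99.1 CPM. RPS29, which has the longest implied length (2.49), ranked 13th of the 81 genes in CPM and 70th in TPM. The log2 fold changes of these 7 genes lay between -0.10 (RPL37A) and 0.06 (RPL28). Deposited TPM also depended on 5 short noncoding RNAs, which held 34.4% to 64.4% of a library's TPM, so TPM differences between groups are not read here, and the ranks and shares are of values averaged over the 6 libraries.

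**Figure D5:**
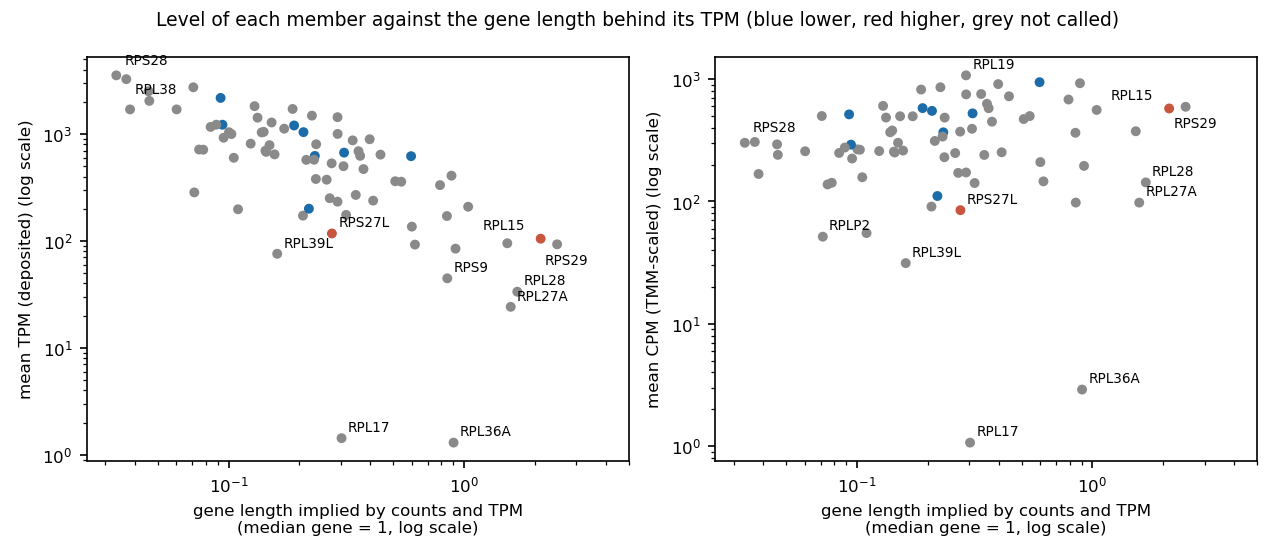
Mean TPM (left, log scale) and mean CPM (right, log scale) of each of the 78 members against the gene length implied by the ratio of deposited counts to TPM (log scale, median gene = 1), coloured by call. TPM falls from RPS28 at 3537 to RPL27A at 24.2 as length rises, CPM shows no such fall, and RPL17 and RPL36A lie far below the other members on both scales.

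RPL17 and RPL36A had the fewest counts of the members that reached the count minimum, and RPS10 lay just below that minimum. RPL17 had 23, 24 and 16 counts without DOX and 10, 28 and 18 counts with DOX. RPL36A had 67, 70 and 53 counts without DOX and 65, 36 and 41 counts with DOX, and RPS10 had 3 to 8 counts in each library. In GENCODE 29, exons of each of these genes overlap on the same strand with those of a readthrough gene that joins it to its neighbour. The part of the exon bases free of other genes was 46.6% for RPL17, 73.4% for RPL36A and 44.4% for RPS10. The 3 readthrough genes had 0 counts in every library. How reads that fit both genes were assigned is not given in the sources used here, so the values of these 3 genes are uncertain, and the part of the overlap in their low values was not tested.

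Pseudogenes share sequence with most members. The count table holds 31 rows named as pseudogenes of a member, of which 18 passed the filter and 3 were called: RPL31P11 higher (log2 fold change 0.34, adjusted p = 0.000574), and RPL13AP20 (-0.49, adjusted p = 0.0002) and RPSAP58 lower. Their parents RPL31 (-0.10) and RPL13A (-0.02) were not called. Adding each pseudogene row to its parent before the fit left 10 members called, 8 lower and 2 higher. The sign of RPL31 turned when the RPL31P11 row was added to it, from -0.10 to 0.08. RPSA was the only called member with such a row, so the counts of the other called members were the same in this fit. It therefore cannot show whether their reads are shared with pseudogenes. Of the 15 members with over 20 pseudogenes in GENCODE 29, 3 were called, all lower, with a median of -0.08, and of the other 63, 7 were called, with a median of -0.03. Beside these counts, 26.7% of all genes tested were called and 13.7% were lower.

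Genes that work with these proteins were counted in the same fit, from lists chosen with earlier results of these data known. The counts of each list stand beside the 26.7% of all genes tested that were called. Of 7 further genes of the cytosolic ribosome, 0 were called by edgeR or DESeq2, and 1 had an unadjusted p under 0.05. FAU, which encodes a ribosomal protein fused to a ubiquitin-like protein, had a log2 fold change of -0.0025 (interval -0.14 to 0.14). RACK1, a scaffold on the small subunit, had -0.14 (interval -0.29 to 0.0067, adjusted p = 0.15).

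Other mRNAs known to carry a TOP tract encode translation factors. Of 15 such genes, 1 was called, the initiation factor subunit gene EIF3E. It had 554, 445 and 581 CPM without DOX and 419, 485 and 414 CPM with DOX (log2 fold change -0.26, adjusted p = 0.022), and the groups overlapped. EIF3E was not called with a replicate block (adjusted p = 0.058) or without DOX-negative replicate 1 or 3 or DOX-positive replicate 1 or 3 (adjusted p = 0.09 to 0.13). The median of the 15 was -0.04, as in the members.

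Of 12 regulators of TOP mRNAs, 4 were called (33.3%, beside 26.7% of all genes tested). DESeq2 also called 4 of them, and 3 were called with a replicate block, where 22.1% of all genes were called. EIF4EBP1 and EIF4EBP2 encode repressors of cap-dependent translation that mTORC1 inactivates. EIF4EBP1 had 39.0, 46.2 and 43.5 CPM without DOX and 65.3, 59.6 and 55.6 CPM with DOX (log2 fold change 0.49, adjusted p = 0.000196). EIF4EBP2 had 359, 331 and 387 CPM without DOX and 228, 233 and 228 CPM with DOX (-0.65, adjusted p = 1.51e-07). The groups of both genes were apart, in opposite directions. RPS6KB1 (0.20, adjusted p = 0.034) and RPS6KB2 (0.36, adjusted p = 0.0022), which encode kinases of the ribosomal protein RPS6, were higher. LARP1 (-0.07, interval -0.20 to 0.06) and MTOR (0.08, interval -0.07 to 0.22) were not called.

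Among 6 factors that bind promoters of ribosomal protein genes, MYC rose from 121 ± 5.56 to 188 ± 18.7 CPM (SD, n = 3 each, log2 fold change 0.64, adjusted p = 1.02e-06). TBP, the TATA-binding protein, fell from 19.4 ± 0.286 to 15.6 ± 1.92 CPM (-0.32, adjusted p = 0.04), and the other 4 were not called. TBP was not called by DESeq2 (adjusted p = 0.065), with a replicate block (adjusted p = 0.059), or with any library but DOX-positive replicate 2 left out (adjusted p = 0.059 to 0.22). Of 9 chaperones and importers of ribosomal proteins, BCCIP (-0.36, adjusted p = 0.000358) and IPO7 (-0.23, adjusted p = 0.0079) fell and 7 were not called. IPO7 was not called without DOX-positive replicate 1 (adjusted p = 0.054). Of 11 factors that act on stalled ribosomes, 1 was called: RNF10, a ubiquitin ligase for small subunit proteins, rose from 204 ± 8.97 to 265 ± 15.5 CPM (0.38, adjusted p = 0.000138).

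Mitochondrial ribosomal protein genes were compared in the same way. Of 77 in the table, 76 were tested and 9 were called (11.8%, beside 26.7% of all genes tested), 4 higher and 5 lower, with a median of 0.04. Log2 fold changes ran from -0.72 to 0.44. MRPL42 had a log2 fold change of -0.72 ± 0.08 (SE, adjusted p = 4.7e-07) and MRPL17 of -0.45 ± 0.09 (SE, adjusted p = 0.001). They held 0.354% ± 0.007 of the counts in DOX-negative cells and 0.344% ± 0.0014 in DOX-positive cells (SD, n = 3 each).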

How the data were processed

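Groups and replicate numbers came from the sample titles. Replicates are described only as triplicate cultures, so p-values measure the spread between these samples. Libraries of a group differed beyond sampling noise (chi-square per degree of freedom 3.78 to 20.2), and each counted as 1 replicate. Same-numbered libraries were not paired (correlations of deviations -0.12 to -0.03).

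The authors deposited whole-number counts for poly(A)-selected libraries (TruSeq Stranded mRNA), with no molecular identifiers mentioned. STAR, DESeq2 and GRCh38/hg38 are named in the submitters' processing notes; the counting step, its use of strand and the annotation are not given in the sources used here. The deposited TPM values divide counts by a gene length fixed per gene. The interval of a share and the floor cover counting error only, while intervals of log2 fold changes also hold the spread between libraries.

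Counts of all genes were fitted in R 4.3.3 with edgeR 4.0.16 (filterByExpr, TMM, glmQLFit, glmQLFTest, group only, two-sided), adjusted over 14292 genes. CPM are TMM-scaled, and the SE is the absolute log2 fold change over the square root of F. The fit was tested on simulated data. Alternatives used DESeq2 1.42.0 and limma 3.58.1 on log2(TPM + 1) and log2(TPM + 0.1), which understates changes of low genes. Others changed scaling, filter, replicate block, length and GC trends, and libraries; pseudogene sums, implied gene length and leaving out RPL17 and RPL36A were chosen after seeing the data.

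Members and lists were chosen with earlier results of these data known. Named genes were MUC1, the called members (up to 8 each way), the 4 highest and 4 lowest in TPM, RPL5, RPL11, stalk genes, RPSA, lesser paralogs, up to 2 called genes per list, FAU, RACK1, LARP1, MTOR and MYC. Others were named after their values were seen. Member protein sequences were not analysed here, and some genes are not reported here.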

Additional observations from a re-analysis of the deposited data

How the results depend on the processing

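The 10 called members (8 lower, 2 higher) became 7 with RLE factors, 5 of them lower, and 5 called (2 lower) when scaled to the members. Of all genes, 26.7% were called with RLE factors and 26.4% when scaled to the members. With a replicate block, although the numbers do not pair the libraries, 5 were called (3 lower), where 22.1% of all genes were called. Correcting transcript length and GC trends gave 19 called (17 lower), where 30.2% of all genes were called and 13.9% were lower. Implied gene length in its place gave 25 called (23 lower), where 30.7% of all genes were called and 14.1% were lower. That fit had a median of -0.11 and 30 list genes called, against 19 in the comparison as reported. The cause was not tested. The threshold of 0.01 left 3. On log2(TPM + 1), limma called 0 members in either direction, with 9 at an unadjusted p under 0.05, a median of -0.43 and 2 list genes, and on log2(TPM + 0.1) 0, 11, -0.44 and 2. Calls were few over all genes too, at 3.13% with log2(TPM + 1) and 2.89% with log2(TPM + 0.1). The deposited TPM shifted the median of all genes by -0.32 and -0.39. Rescaled without the 5 short noncoding RNAs, 6 were called (4 lower), where 21.9% of all genes were called. Leaving out 1 library gave 5 to 12 members called, 2 to 3 higher and 3 to 9 lower, medians of -0.07 to -0.02, differences in share of -0.181 to -0.116 percentage points and 13 to 23 list genes. Of all genes, 19.2% to 25.2% were called with 1 library left out. In all, 27 members were called in at least 1 of 20 alternatives, and 51 in none and not in the main comparison.

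Signs turned on log2(TPM + 1) and log2(TPM + 0.1) for RPL15 (-0.19, -0.19), RPS25 (-0.38, -0.38), RPL28 (-0.32, -0.33), RPLP0 (-0.32, -0.32), MTOR (-0.30, -0.32) and RNF10 (-0.017, -0.017). RPS25 was also negative with total counts (-0.024), length and GC (-0.050, implied -0.10) and rescaled TPM (-0.0081). FAU turned to 0.0021 with DESeq2, 0.0012 with RLE and 0.038 when scaled to the members, and RPL27A to 0.0016 when scaled to the members. With 1 library left out, RPS25 ran from -0.037 (no DOX-negative replicate 2) to 0.039, FAU from -0.039 to 0.049 (no DOX-negative replicate 3), and RPL17 from -0.50 to 0.30 (no DOX-positive replicate 1). RPL17 and RPL36A had the fewest counts of the members and the widest intervals.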
